A study of Mus musculus with 1392 samples.

Results

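Open chromatin is not spread evenly along the genome. Some stretches hold many accessible sites within a short distance, as around gene-dense regions, clusters of enhancers and arrays of related sequence, and sites that lie close together can gain or lose accessibility as a block or one at a time. Hematopoietic stem cells are the bone marrow cells from which all blood lineages arise, and those that express Vwf (von Willebrand factor, a glycoprotein of platelets and endothelium) are known as a platelet-biased fraction. The peaks described here are the accessible sites of the most crowded stretches: those lying in 100 kb bins with 15 or more peaks.

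Single cells were profiled by ATAC-seq, in which a transposase cuts accessible DNA, and the counts of 115295 peaks in 1392 cells were analysed. All cells came from C57BL/6 mouse bone marrow and were sorted as LSK CD150+ CD48- CD34- Vwf+ stem cells from young and from old animals. Cell titles carry 5 numbered set names, young 1 and 2 and old 1, 2 and 3, each with 151 (young 2) to 380 cells (old 2). A set held 1159957 to 4181770 counts, and median counts per cell ran from 3604.5 (old 3) over 4434 (old 2), 6133 (young 1) and 9623 (old 1) to 11807 (young 2).

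How old the animals were is not stated in the labels, nor is what a numbered set stands for (mouse, pooled mice or plate). Each set was taken as 1 replicate. The p-values rest on set-to-set spread, possibly technical, and in the edgeR tests on counting noise too. Age cannot be told apart from any difference in preparation between young and old sets. The peaks are named by position and carry no gene names, so the sorted identity was not checked against marker genes, and no mm9 sequence or annotation was used: neither genes nor sequences under the peaks are given.

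Members were selected on 2 values measured in these same cells. Peaks of chromosomes 1 to 19 were assigned by midpoint to fixed bins of 100000 bp, and bins with at least 15 peaks were called dense. Within them, peaks with a count in under 20% of all cells were kept. Of 17999 bins with any peak, 1206 (6.70%) were dense, and they held 20798 of the 112207 peaks of these chromosomes (18.5%). After 1019 peaks at or above 20% were set aside, 19779 members remained, 17.2% of the whole table. No 2 cells had identical columns of counts.

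The threshold lies on a continuous slope. The median bin held 5 peaks, 399 bins held 14 and 317 held 15. The peaks of bins of 14 were as wide at the median as those of bins of 15 (420.5 and 431 bp), and the median share of cells was 3.16% in both. At the other limit, the member open in the most cells had a count in 19.97% of them, and the nearest peak left out in 20.04%. Between 19 and 20% lay 162 members, and 139 dense-bin peaks lay between 20 and 21%.

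The median width of members was 423 bp and the widest had 2760 bp; the median was 394 bp for peaks of the same kind in the other bins. The median member had a count in 3.38% of cells (2.66% in other bins), 54 counts in all (42 in other bins) and 1.16 counts per open cell. Peaks under 300 bp made up 28.5% of members and 31.6% of the others, and 9 members had no count in any cell. In the median dense bin, neighbouring midpoints lay 4271 bp apart and peaks covered 9.37% of the sequence, up to 19.8%.

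Dense bins were unevenly spread over chromosomes. Chromosome 11 had 126 of them with 2093 members, and 13.1% of its occupied bins were dense. On chromosome 17 the share was 9.63%, on chromosome 19 it was 9.05%, and on chromosomes 16 and 13 it was 3.46% and 3.47%. Of the 1206 dense bins, 542 adjoined another dense bin and 664 stood alone. The longest run was 8 neighbouring bins at chr10:79100000-79899999 (mm9), with 148 peaks and 140 members.

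**Figure D1:**
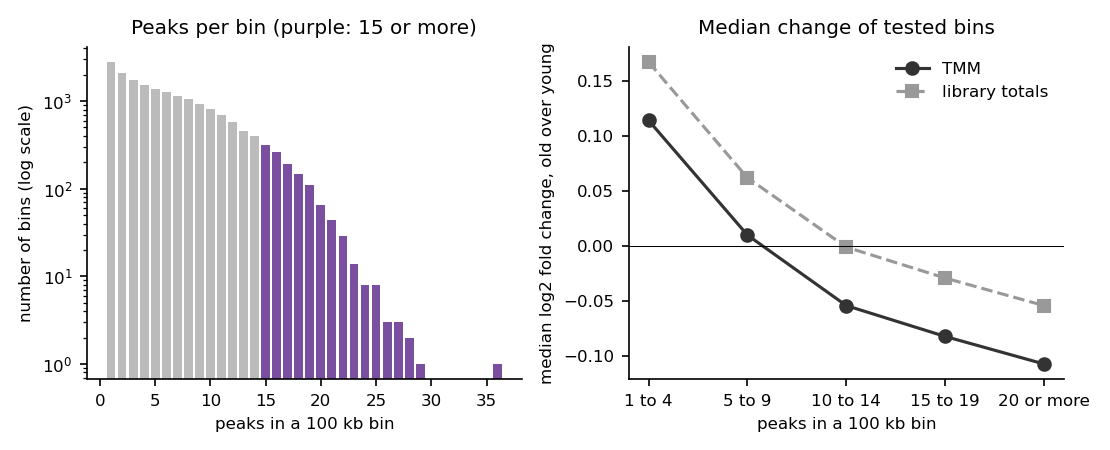
Left, number of 100 kb bins (log scale) by the peaks they hold, with the 1206 dense bins in purple; 1 bin stands apart at 36 peaks. Right, median log2 fold change (old over young) of tested bins by class of peaks per bin, under TMM scaling (circles) and library totals (squares); under both the median is highest in bins of 1 to 4 peaks and lowest in bins of 20 or more.

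The most crowded bin, chr8:126100000-126199999 (mm9), held 36 peaks, and its neighbour chr8:126000000-126099999 held 27. Both consisted largely of evenly stepped peaks. The median distance from a midpoint to the next was 1705 bp in the first and 1702 bp in the second, and 68.6% and 80.8% of all steps lay within 10% of that value. Most of their peaks were open in so many cells that the 20% limit removed them: 11 of 36 and 5 of 27 remained as members.

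A comparable layout appeared in 1 other dense bin, chr6:114500000-114599999, with 19 peaks, a median step of 2500.5 bp and 77.8% of steps within 10% of it. Across all 1206 dense bins the median of this share was 12.5%, and the highest value outside these 3 bins was 41.2%. The measure was chosen after the data had been seen. Whether the evenly stepped peaks lie on copies of one sequence, and so whether reads could be shared among them, was not tested; their values are given as arrays, while the totals over members count each peak singly. Without these 3 bins, an alternative added after the data had been seen, 257 members were called in place of 263 (92 higher in old and 165 in young), the likeness of changes within a bin (intraclass correlation) was 0.05 with and without them, and the co-opening ratio was 1.065 in place of 1.067.

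The rest of the 10 most crowded bins had no such rhythm and few peaks open in many cells. All 29 peaks of chr9:32300000-32399999 were members, as were all 28 of chr11:96100000-96199999 and all 28 of chr13:23500000-23599999. Of 27 peaks each, chr11:117100000-117199999 and chr14:26300000-26399999 kept 26 members. Of 26 peaks each, chr3:89000000-89099999 and chr15:101000000-101099999 kept 25 members and chr17:35300000-35399999 kept 24.

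Summed over members, none of these 8 bins was called different between old and young. The 29-peak bin on chromosome 9 stood at 342 and 346 CPM in young against 321, 314 and 366.5 CPM in old, with overlap (log2 fold change -0.05, SE 0.13, edgeR adjusted p = 0.883). The 28-peak bins on chromosomes 11 and 13 stood at 0.06 and 0.06 (adjusted p = 0.866 and 0.873), and the other bins in this group without even steps at -0.34 to 0.00, none called. The lowest of them, chr15:101000000-101099999, had 473 and 512 CPM in young against 425, 406 and 332 CPM in old, without overlap (-0.34, SE 0.13, adjusted p = 0.125), and 3 of its 19 tested members were called higher in young.

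In single cells thinned to equal depth, few members of a bin were seen open at once, and a cell without a count is not shown to be closed. At an equal depth of 1906 counts per cell (the 10th percentile of all cells, with shallower cells left out), a member of the 29-peak bin on chromosome 9 was seen open in 36.2% and 34.9% of cells of young 1 and young 2, and 39.6%, 33.8% and 38.5% of those of old 1, old 2 and old 3. No thinned cell had more than 4 of its 29 members open. Without thinning the shares ran from 59.2% in old 2 to 83.4% in young 2, the set with the deepest cells. The most members open in 1 unthinned cell were 8 in young 1 and 10 in young 2. In old 1, old 2 and old 3 they were 18, 8 and 6.

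Old and young sets were then compared peak by peak. Counts were summed over the cells of each set and tested with edgeR's quasi-likelihood test across the whole table, with Benjamini-Hochberg adjustment and a threshold of 0.05. Of the 19779 members, 10858 had enough counts to be tested. Of these, 92 (0.847%) were higher in old and 171 (1.57%) were higher in young. Over all 58167 tested peaks the shares were 1.39% (808 peaks) and 1.78% (1036 peaks). Under library totals in place of TMM the member counts were 124 and 120, so the balance of directions depends on the scaling. With 1 set left out, calls numbered 143 (young 2 absent), 129 (old 2 absent) and 86 (old 3 absent).

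The called members were scattered. The 92 higher in old lay in 83 bins and the 171 higher in young in 149, and 10 dense bins held members called in both directions. At most 3 members of a bin were called higher in old and at most 4 higher in young. Called members had a median log2 fold change of 1.92 in the first group and -1.32 in the second, while all tested members had a median of -0.05 and all tested peaks one of -0.01. Without young 2 both of these medians were 0.06. Young and old sets did not overlap for 3436 tested members (31.6%), of which 3177 were not called. The share was 33.2% over all tested peaks and 33.6% over those of other bins, so members did not stand out in it.

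The smallest p-value among members higher in old belonged to chr9:68788879-68789362. It had 1.99 CPM (counts scaled to a common library size) in young 1 and 4.94 CPM in young 2, against 21.8, 35.4 and 35.2 CPM in old 1, old 2 and old 3. All old sets lay above both young sets, by a log2 fold change of 2.90 (SE 0.39, edgeR adjusted p = 6.22e-07). The 3 other tested members of its bin had log2 fold changes between -0.20 and 0.00.

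On chromosome 11, 2 such members shared a bin. The first, chr11:115879421-115879882, had 8.97 and 4.94 CPM in young against 24.1, 44.8 and 35.2 CPM in old (log2 fold change 2.41, SE 0.36, edgeR adjusted p = 5.31e-06). The second, chr11:115882678-115882951, had 1.99 and 5.38 CPM in young against 24.4, 25.0 and 16.6 CPM in old (2.38, SE 0.40, adjusted p = 5.22e-05). In both the old sets stood clear of the young, and beside the first member the other 8 tested members of the bin had a median of -0.16. The bin as a whole was not called (0.39, adjusted p = 0.114).

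Several members higher in old were close to absent in the young sets. The peak chr7:119362980-119363916 had 1.99 and 0 CPM in young against 14.9, 13.5 and 9.96 CPM in old, and chr17:74202281-74202966 had 0 and 0.45 CPM against 8.66, 6.25 and 12.0 CPM. Fitted log2 fold changes for such peaks (4.26, SE 0.68, and 4.59, SE 0.83) depend on the few young counts, and the second was not called by DESeq2 (adjusted p = 0.0926). The remaining 5 of the 10 named members higher in old had log2 fold changes from 2.17 to 3.55 and non-overlapping sets in each case.

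Among members higher in young, chr12:83374120-83374343 had the smallest p-value. It stood at 29.9 and 33.2 CPM in young but at 2.36, 2.08 and 3.32 CPM in old, a log2 fold change of -3.64 (SE 0.36, edgeR adjusted p = 9.20e-11). The 5 other tested members of its bin had a median of 0.06. Next came chr9:90197068-90197309, at 70.7 and 91.5 CPM in young and 19.4, 17.7 and 19.9 CPM in old (-2.11, SE 0.22, adjusted p = 4.32e-10). Both of these peaks were narrow, 223 and 241 bp.

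The third, chr1:135712220-135712990, had 63.8 and 41.3 CPM in young against 7.34, 10.4 and 3.32 CPM in old (log2 fold change -2.80, SE 0.30, edgeR adjusted p = 1.07e-09). Its counts came from few cells: 63.6% of them lay in 5 cells. When each cell was counted at most once per peak, its log2 fold change was -0.61 with an adjusted p of 0.518, and the call was lost. For the other 9 named members higher in young, the top 5 cells held between 8.01% and 34.3% of the counts, and their log2 fold changes ran from -1.54 to -3.93. Over all called members, 50% or more of the counts lay in 5 cells for 1 of 92 higher in old and 5 of 171 higher in young.

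Of 819 tested members under 300 bp, 14 were higher in old and 19 higher in young. In the whole table, 43 and 220 of 3358 tested peaks of this width were called. The peaks of dense bins at or above the 20% limit were all tested, and of 1019 such peaks 7 were called up in old and 33 down, at a median log2 fold change of -0.13. Over all tested peaks 1.39% were higher in old and 1.78% higher in young. The 3 evenly stepped bins held 25, 22 and 12 of the 1019 peaks, and the 33 include peaks of their arrays.

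To see whether a dense bin moved as a unit, the counts of its members were summed and all bins of chromosomes 1 to 19 tested together, with the peaks under 20% of cells of every bin treated in the same way. All 1206 dense bins were among the 15809 tested. Of these, 3 dense bins (0.249%) were higher in old and 44 (3.65%) higher in young. Over all tested bins 2.65% (419 bins) were higher in old and 2.77% (438 bins) higher in young. With library totals the dense bins split 9 to 28, and over the 5 fits that each left out 1 set between 17 and 73 were called. The lowest counts came without young 2 or without old 2.

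Dense bins lay mostly on the young side. The log2 fold change was below 0 in 835 of 1206, their median was -0.09 against 0.00 over all tested bins, and the quartiles were -0.21 and 0.03 (all bins -0.20 and 0.26). In bins of 1 to 4, 5 to 9 and 10 to 14 peaks, 41.2%, 48.6% and 59.3% of tested bins were below 0. The median of dense bins was below 0 on all 19 chromosomes, from -0.16 to -0.005. These values are under TMM. With library totals the median of all dense bins was -0.03 (all tested bins 0.06), so counts below 0 depend on the scaling. Under TMM the median was lower in each denser class, from 0.11 in bins of 1 to 4 peaks through 0.01, -0.05 and -0.08 to -0.11 in bins of 20 or more. Library totals moved all classes up by a like amount, from 0.17 to -0.05, and kept the order. The median of the dense bins was -0.04 without young 2 (all bins 0.02), -0.13 without old 1 and -0.05 with cells at equal depth. Median counts per tested bin rose with density too, from 142 in bins of 1 to 4 peaks to 1886.5 in bins of 20 or more, and their part in this order was not tested.

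The share of all counts lying in members did not separate the groups. Young 1 and young 2 had 14.6% and 15.1%, and old 1, old 2 and old 3 had 15.5%, 14.4% and 14.5%, with a mean of 14.9% ± 0.39 (SD, n = 2) in young and 14.8% ± 0.63 (SD, n = 3) in old. The groups overlapped, and the difference of -0.05 percentage points gave p = 0.9 in an exact two-sided permutation test over the 5 sets, in which 0.1 is the smallest possible value. Its sign turned when young 2 (0.23 points), old 2 (0.17 points) or old 3 (0.10 points) was left out. With each cell counted at most once per peak it was -0.56 points (exact p = 0.5), and the groups still overlapped.

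**Figure D2:**
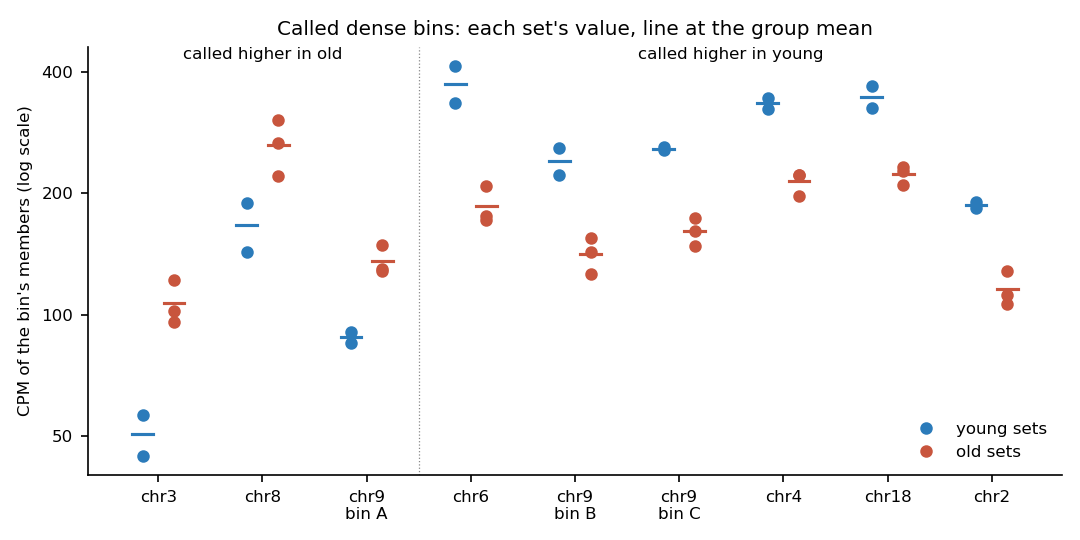
CPM of the summed members (log scale) in each young (blue) and old (red) set for the 3 dense bins called higher in old and the 6 called higher in young with the smallest p-values; lines mark group means. On chromosome 9, bin A starts at 119400000, bin B at 37200000 and bin C at 90100000, and no old set overlaps a young set in any of the 9 bins.

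The dense bin with the smallest p-value lay at chr6:114500000-114599999, the bin of evenly stepped peaks. The sum of its 7 members was 412 and 335 CPM in young against 176, 209 and 172 CPM in old. The old sets all lay below the young, with a log2 fold change of -0.999 (SE 0.134, edgeR adjusted p = 1.28e-05), and 4 of the 7 members were called higher in young by themselves. The 5 members within the steps had log2 fold changes of -1.26, -1.10, -0.92, -0.73 and -1.49. The 2 members beyond the last step stood at -0.32 and 0.04 and were not called.

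The array was longer than the bin and included peaks above the 20% limit. It ran from 114461686 to 114587058 on chromosome 6, a span of 125.4 kb, with 24 evenly stepped peaks, of which 5 were members and 17 were open in 20% of cells or more. All 24 were lower in old, 23 of them by the test, with log2 fold changes from -1.49 to -0.73 and a median of -0.98. Their SD of 0.15 was below the median SE of a single peak, 0.21. That SE includes spread between sets, which peaks counted in the same sets can share, so the comparison does not measure how alike they are. Summed, the array gave 1895 and 1617 CPM in young against 863, 911 and 807 CPM in old, with no overlap.

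The array on chromosome 8 had 50 evenly stepped peaks from 126062361 to 126148009 (85.6 kb), open in 15.4% to 49.1% of cells. It too leaned one way in every peak: all 50 were lower in old, with a median log2 fold change of -0.40, an SD of 0.19 and a median SE of 0.20, and 6 were called. Its sum, however, was 4710 CPM in young 1 and 6776 CPM in young 2 against 4003, 4865 and 4508 CPM in the old sets. Young 1 lay below old 2, so the groups overlapped and young 2 alone stood high. As bins of members, the 36-peak bin was called (log2 fold change -0.46, SE 0.14, edgeR adjusted p = 0.0411) and the 27-peak bin was not (-0.39, SE 0.16, adjusted p = 0.150). Tested members of the 36-peak bin within the span of the array stood at -0.68, -1.075, -0.50, -0.72 and -0.30. Those beyond it stood at -0.01, 0.33 and 0.24, so the call of this bin is not separate from the array.

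**Figure D3:**
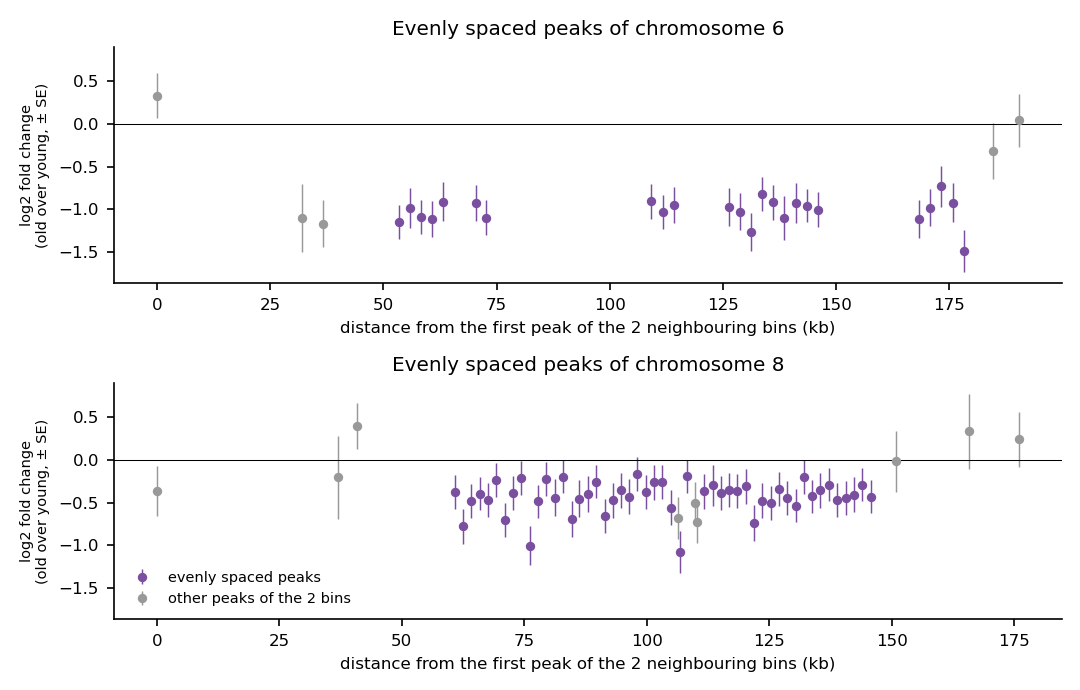
Log2 fold change (old over young, ± SE) of each tested peak against its distance in kb from the first peak of the 2 neighbouring bins that hold the array, on chromosome 6 (top) and chromosome 8 (bottom). Evenly spaced peaks (purple) have a median of -0.98 above (range -1.49 to -0.73) and -0.40 below (range -1.075 to -0.17). The other tested peaks of the bins (grey) have medians of -0.32 above (range -1.16 to 0.33) and -0.20 below (range -0.72 to 0.40). The ranges overlap in both, and on chromosome 8 the lowest grey peak (-0.72) lies within the span of the array.

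Outside the arrays, the bins called higher in young differed in how widely the change was shared. In chr9:37200000-37299999 the members summed to 258.7 and 222 CPM in young and 155, 143 and 126 CPM in old (log2 fold change -0.74, SE 0.14, edgeR adjusted p = 0.000854). All 10 tested members were lower in old, from -1.14 to -0.17, although 1 alone was called. In chr4:154500000-154599999 (324 and 345 against 223, 223 and 197 CPM; -0.64, SE 0.13, adjusted p = 0.00169) and chr18:75500000-75599999 (325 and 369.4 against 232, 227 and 209 CPM; -0.64, SE 0.13, adjusted p = 0.00169), all 10 tested members were likewise below 0, with 2 and 1 called. Without young 2 these bins stood at -0.59 (adjusted p = 0.0503) and -0.53 (adjusted p = 0.0888), and the second was not called with cells at equal depth (adjusted p = 0.0934).

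In some called bins a single peak stood apart from the other tested members. The bin chr9:90100000-90199999 stood at 260 and 256 CPM in young against 148, 161 and 174 CPM in old (log2 fold change -0.69, SE 0.13, edgeR adjusted p = 0.00117). It holds the narrow peak at 90197068 described above, and the other 8 tested members had a median of -0.13. Without peaks under 300 bp the bin stood at -0.15 with an adjusted p of 0.650, and with cells at equal depth at -0.58 with an adjusted p of 0.132. In chr2:152500000-152599999 (191 and 184 against 129, 112 and 106 CPM; -0.68, SE 0.14, adjusted p = 0.00254), 6 of 9 tested members were lower in old and 1 was called. Without that peak this bin stood at -0.37 (adjusted p = 0.227). The bin of the chromosome 12 peak at 83374120 was called higher in young (-0.60, edgeR adjusted p = 0.00859), with 3 tested members higher in old and 3 lower. So was the bin of the chromosome 1 peak at 135712220 (-0.585, edgeR adjusted p = 0.0087). That peak had 63.6% of its counts in 5 cells, and the other tested members of its bin had a median of -0.03.

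The 3 dense bins higher in old also differed in this respect. The members of chr3:57300000-57399999 summed to 44.8 and 56.5 CPM in young and 96.1, 122 and 102 CPM in old (log2 fold change 1.03, SE 0.18, edgeR adjusted p = 0.000648), with 4 of 5 tested members higher and 1 called. Those of chr9:119400000-119499999 summed to 90.9 and 85.3 CPM against 149, 129 and 130 CPM (0.64, SE 0.15, adjusted p = 0.0101), with 6 of 8 higher and 1 called. Those of chr8:73200000-73299999 summed to 190 and 144 CPM against 220, 304 and 266 CPM (0.68, SE 0.15, adjusted p = 0.00592), with 6 of 11 higher and 2 called; without peaks under 300 bp this bin stood at 0.36 with an adjusted p of 0.168, and with its peaks at or above 20% of cells included at 0.26 with an adjusted p of 0.197. The bin on chromosome 9 was not called with DESeq2 (adjusted p = 0.0748) or with cells at equal depth (adjusted p = 0.293). The last 2 bins were not called without young 2 (adjusted p = 0.175 and 0.231), nor the last without old 2 (0.0776).

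Over the 47 called dense bins, 37 held a member called in the same direction, 27 exactly 1 and 10 at least 2. The other 10 held none. In the 44 bins higher in young, 305 of 390 tested members (78.2%) were lower in old, against 54.1% of all tested members, and in 8 bins every tested member was lower. In the 3 bins higher in old, 16 of 24 tested members were higher. These shares follow in part from the choice of bins by the same counts. When the peaks called by themselves were taken out of the sums, none of the 1206 dense bins was called by edgeR. At an unadjusted p under 0.05, 157 were then still higher in young and 18 higher in old, and the median stayed at -0.08. The removal lowers the count by its construction.

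Among the 10 called bins without a called member, chr11:87900000-87999999 had all 11 tested members below 0, from -0.77 to -0.02, and a bin value of -0.43 (edgeR adjusted p = 0.0455). In chr10:127600000-127699999 all 8 tested members lay between -0.84 and -0.23, with a bin value of -0.55 (adjusted p = 0.0147). These 2 bins were picked after their values had been seen, as examples of small changes spread over a whole bin.

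Likeness within bins was weak over the dense bins as a whole. The intraclass correlation of log2 fold changes by bin was 0.05 over 10857 tested members of 1205 bins, and 0.14 over 36802 tested peaks of 9570 other bins. It describes the data and carries no test, since peaks of a bin share cells and libraries. The SD of log2 fold changes over tested members was 0.59 and the median SE of a member was 0.37. Restricting to better-counted peaks, with a minimum count of 30, gave 0.11. Among the dense bins with at least 5 tested members, every tested member was higher in old in 7 and lower in old in 16, and the median range from the lowest to the highest member was 1.59 on the log2 scale.

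Likeness fell with distance. For pairs of members under 1 kb apart the Pearson correlation of log2 fold changes was 0.23 (560 pairs), at 1 to 5 kb 0.11 (4284 pairs), at 5 to 20 kb 0.06, at 20 to 50 kb 0.03 and at 50 to 100 kb 0.03. In other bins the same classes gave 0.42, 0.24, 0.10, 0.06 and 0.05. Where both members of a pair were called, they had the same direction in 10 of 11 pairs at 1 to 5 kb, in 15 of 17 at 5 to 20 kb, in 10 of 16 at 20 to 50 kb and in 1 of 4 beyond. In other bins the same classes had 27 of 27, 29 of 34, 28 of 29 and 11 of 13, which do not fall steadily with distance. The counts for members include the pairs among the 4 called members of the chromosome 6 array, all lower in old. Between neighbouring dense bins, the log2 fold changes correlated at 0.16 over 324 pairs, with the same sign in 197. In the run of 8 bins on chromosome 10, all 8 stood below 0, from -0.28 to -0.008, and none was called.

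**Figure D4:**
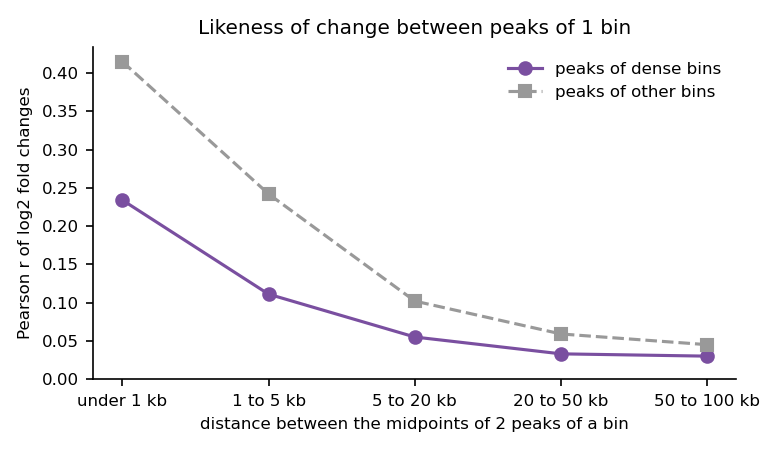
Pearson correlation across pairs of tested peaks of the same bin between their log2 fold changes (old over young), by distance between midpoints, for dense bins (circles) and other bins (squares). Both curves are highest under 1 kb, at 0.23 and 0.42, and beyond 50 kb they lie at 0.03 and 0.05.

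For some members the change differed in size from that of the rest of their bin, which need not mean the opposite direction. In a test of each peak against the rest of its bin (edgeR's diffSpliceDGE, adjusted over 47659 peaks), 43 of 10857 members (0.396%) lay above their bin and 44 (0.405%) below, against 0.405% and 0.329% of all peaks so tested. These shares are close to the background. The 87 departing members lay in 79 bins, 77 of them were also called old against young, and the median size of the departure was 1.86 on the log2 scale.

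The clearest departures were single peaks whose bins had medians near 0 in their other members. The peak chr10:61721154-61721369 had 53.8 and 66.4 CPM in young against 15.2, 8.86 and 11.3 CPM in old. It lay 1.91 log2 units below its bin (adjusted p = 1.94e-07), whose other 9 tested members had a median of -0.12. The chromosome 12 peak at 83374120 lay 2.98 log2 units below its bin (adjusted p = 4.03e-07), and the chromosome 7 peak at 119362980 lay 4.24 units above its bin, whose other 10 tested members had a median of -0.17 (adjusted p = 7.05e-06). The chromosome 7 departure was not called without young 2 (2.71, adjusted p = 0.158), nor that on chromosome 10 with cells at equal depth (-1.96, adjusted p = 0.261).

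The peak chr18:35025728-35026012, at 0.996 and 2.69 CPM in young and 11.8, 16.1 and 15.9 CPM in old, lay 2.74 log2 units above its bin (edgeR adjusted p = 0.000967). Another peak below its bin, chr5:117598945-117599234 (-4.76, adjusted p = 5.92e-05), had 35 counts in all, 97.1% of them in 5 cells. Members called in opposite directions formed 12 pairs. The closest of these lay 3634 bp apart on chromosome 19, where chr19:42218668-42218930 had a log2 fold change of 1.85 and chr19:42221558-42223308 of -0.87.

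Co-opening in single cells was measured in the thinned cells of each set separately. For each pair of members the number of cells with both open was divided by the number that the 2 members' own frequencies give, and the sum over pairs of 1 bin was set against the same value for members on different chromosomes. The young sets gave ratios of 1.090 and 1.078, and old 1, old 2 and old 3 gave 1.024, 1.085 and 1.059. It exceeded 1 in all 5 sets, with a mean of 1.067 ± 0.027 (SD, n = 5 sets). Members of different bins of the same chromosome gave 1.005 to 1.008.

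Young and old sets did not separate. The mean ratio was 1.084 ± 0.008 (SD, n = 2) in young and 1.056 ± 0.030 (SD, n = 3) in old, with old 2 between the young sets. The difference of -0.028 gave p = 0.3 in an exact two-sided permutation over the sets. Old 1 was lowest. Of its 306 cells 222 reached 1906 counts, against 177 of 181 in young 1 and 146 of 151 in young 2, and the part of this in its value was not tested.

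The ratio was highest for close pairs. For members under 1 kb apart (3127 pairs) it was 2.21 and 1.38 in young against 1.11, 1.61 and 1.41 in old, with overlap. At 1 to 5 kb it was 1.20 and 1.13 in young and 1.07, 1.11 and 1.12 in old. The old sets were all below the young in this class, yet the difference of -0.06 had p = 0.1 in the exact permutation, the smallest this design allows, and 0.5 after adjustment over 5 distance classes. From 5 to 50 kb the mean over sets was 1.06 to 1.07, and at 50 to 100 kb 1.03 with 3 of 5 sets above 1.

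Peaks of less crowded bins gave higher ratios. Their value was 1.143, 1.116, 1.050, 1.123 and 1.107 in young 1, young 2, old 1, old 2 and old 3, and in all 5 sets it lay above that of the dense-bin members, though the difference did not pass the test. The mean difference was -0.040 ± 0.011 (SD, n = 5 sets), with p = 0.0625 in an exact two-sided sign permutation over the sets, the smallest value 5 sets allow, and 0.125 after adjustment over 6 comparisons. The gap was -0.18 at 1 to 5 kb and -0.06 at 5 to 20 kb, and at 20 to 50 kb it was 0.004.

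**Figure D5:**
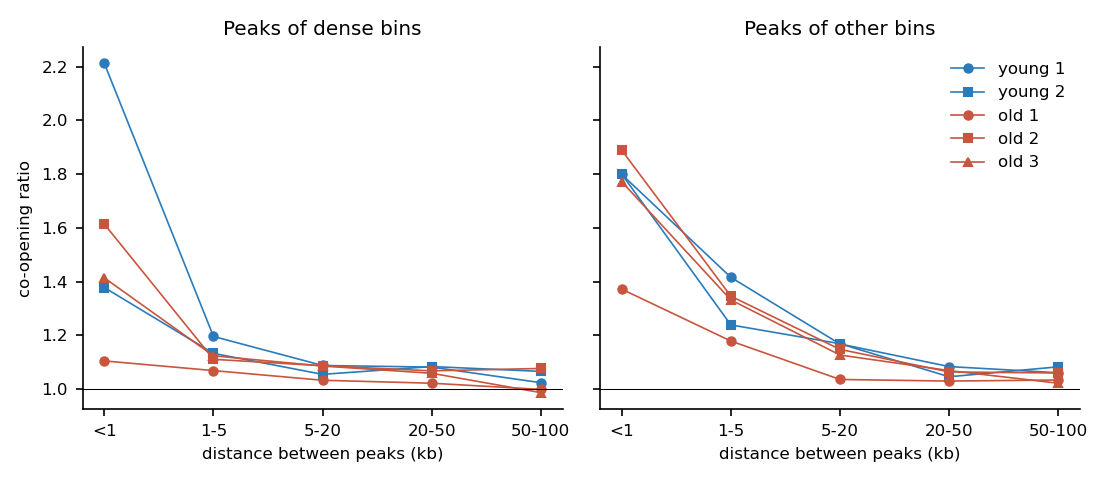
Co-opening ratio (pairs of 1 bin over pairs on different chromosomes, cells at 1906 counts) by distance between peaks, 1 line per set, young in blue and old in red, for dense bins (left) and other bins (right). The ratio is highest under 1 kb, where dense-bin sets range from 1.11 to 2.21, and its mean over sets is lower beyond 20 kb (1.06 and 1.03 in dense bins); in young 2 the dense-bin value is lowest at 5 to 20 kb (1.055). Old 1 is lowest in every class but 50 to 100 kb, where old 3 is.

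Single bins gave few pairs. The median dense bin had 4.73 expected co-open pairs per set, and just 1 bin reached 20 in every set: chr15:101000000-101099999, with 194 co-open pairs observed over the 5 sets against 162.3 expected and a ratio of 1.20 ± 0.06 (SD, n = 5 sets), above 1 in all of them. The limit was then lowered to 5 expected pairs per set, after the data had been seen, which left 204 bins. Of these, 133 had a mean ratio above 1 and the median was 1.06; 15 lay above 1 in all 5 sets and 5 below 1 in all 5.

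The highest of the 204 was again the evenly stepped bin on chromosome 6, with a mean ratio of 1.96 ± 0.83 (SD, n = 5 sets) and 114 co-open pairs against 53.3 expected. Its sets ranged from 0.89 to 2.83, so 1 of them lay below 1. The next were chr11:104400000-104499999 (1.45 ± 0.24, SD, n = 5 sets), chr9:107500000-107599999 (1.44 ± 0.18) and chr5:143600000-143699999 (1.44 ± 0.51), each above 1 in all sets. At the other end were chr9:90100000-90199999 (0.740 ± 0.424), chr12:25900000-25999999 (0.732 ± 0.362), chr1:75400000-75499999 (0.712 ± 0.369) and chr1:182100000-182199999 (0.635 ± 0.091), of which the last lay below 1 in all 5 sets. These bins were ranked on the same values, so their order is a description.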

How the data were processed

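The authors deposited whole-number counts per peak and cell, not normalised. Per the submitters' processing notes, Trim Galore, FastQC, Bowtie2, SAMtools and Picard were used with the mm9 build; versions and peak caller: not given in the sources used here. Cells were assigned to sets by their labels. Members and lists were chosen with earlier results of these data known. Sums over the cells of a set went into edgeR 4.0.16 in R 4.3.3 (TMM, filterByExpr with a minimum count of 10, robust quasi-likelihood fit; SE is the log2 fold change divided by the root of F), adjusted over all tested peaks or bins. The test therefore has 5 replicates; cells are not replicates. CPM are TMM-scaled, over the counts of tested peaks for peaks and of peaks under 20% of cells for bins. For co-opening, cells were thinned to 1906 counts without replacement; shallower cells were left out. DESeq2 1.42.0 was an alternative. Fits and the co-opening measure were tested on simulated data.

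Named bins are the 10 with most peaks, up to 6 called in each direction with smallest p and non-overlapping sets, and the 4 highest and 4 lowest by co-opening; its limit of 20 expected pairs left 1 bin and was lowered to 5. Named peaks are the 10 called members with smallest p in each direction, the 5 departing most clearly in each direction, and all tested members of the called bin with most called members. Alternatives were scaling, filters, binarizing, thinning, a replicate block, other bin limits, bins shifted by 50000 bp and leaving out each set. Peaks were not tied to genes, and no sequence was read.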

Additional observations from a re-analysis of the deposited data

How the results depend on the processing

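In place of the 263 called members, cells thinned to equal depth gave 14, a minimum count of 30 gave 105 and DESeq2 gave 47; bins of 20 or more peaks held 59 and bins of 12 or more 459. Leaving out each set in turn gave 86 to 226. The 47 called dense bins became 81 with each cell counted once per peak, 11 with thinned cells, 21 with DESeq2, 6 among bins of 20 or more peaks, 0 without peaks called by themselves (chosen after the data were seen) and 17 to 73 with a set left out. The 87 departing members became 0 with thinned cells (55 of 1438 at an unadjusted p under 0.05, edgeR), 30 with a minimum count of 30 and 36 to 63 with a set left out. The intraclass correlation was 0.1096 with a minimum count of 30, 0.0738 with thinned cells and 0.0356 to 0.0576 with a set left out. With a peak open at 2 or more counts, the co-opening ratio was 1.4677 (sets 0.933 to 2.13) and its old minus young difference 0.0649 (exact permutation p = 1), opposite in sign to -0.0283; with a set left out these ran from 1.0616 to 1.078 and from -0.0426 to -0.0125. The difference in count share ran from -0.4102 to 0.2292 points with a set left out and was -0.5551 with each cell counted once per peak. The causes were not tested.

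With the replicate number as a block, 149 members (54 and 95), 8 dense bins (2 and 6) and 30 departing members were called. Old 3 has no young set of the same number and adds nothing to the age difference in this fit. The numbers were not taken as pairing, since the labels do not say what they stand for. Deviations of young 1 and old 1 correlated at -0.08 and those of young 2 and old 2 at -0.004. With 2 young sets these values cannot show whether the numbers mark pairs. Of 126 values of named bins under alternatives 24 lost the call, of 243 of named peaks 3 and of 87 departures 6, and none reversed. The 243 and 87 leave out alternatives in which a peak could not be tested. Such cases are not counted as lost, so these counts understate how often a call was missing. Thinning left 1838 members testable, which limits what equal depth can show.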
